A study of Homo sapiens with 21 samples.

Results

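Exon arrays carry many short probesets along each gene, and some of those probesets are annotated with more than 1 gene. In this series of MCF10A cells stimulated with epidermal growth factor (EGF), 14898 of 1384231 probesets carried 2 or more gene symbols in the platform annotation. Of these, 10515 (70.58%) averaged at least 5.18 in log2(intensity + 16) over the 21 arrays, which is the median of the whole array, and are described here. The members next to that limit had means of 5.177011 and 5.177265 just inside it and 5.176900 and 5.176829 just outside it. The kept members fell into 1533 symbol sets, a set being all probesets with the same combination of genes after old symbols were updated. Of these sets, 805 held 3 or more kept probesets (9527 members, median 7 and at most 183 in a set) and were tested, 728 held 1 or 2 (988 members), and another 325 sets had no kept probeset. The level of a set on an array is the median log2(intensity + 16) of its kept probesets.

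MCF10A is an immortalised, non-tumorigenic line from human breast epithelium with basal character. Low-passage cells in biological triplicate were plated in medium lacking EGF for 24 h, kept for 24 h in 1% horse serum, and collected untreated (0 min) or after 20, 40, 60, 120, 240 or 480 min with 20 ng/ml EGF, 3 arrays a group. Total RNA was depleted of ribosomal RNA before labelling. There were no untreated arrays at the later times, so EGF cannot be told apart from the time and handling that went with it. Of 11 basal markers, 9 had a single-symbol gene feature and all 9 lay above the median gene level of 6.62 at 0 min, against 2 of 6 luminal, 2 of 7 fibroblast and 0 of 6 endothelial and blood markers. The median intensity of an array was 20.4 to 20.6, and replicates correlated at 0.945 to 0.988 across sets and genes.

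As background, EGF binds its receptor and acts through the ERK cascade, which switches on early transcription factors and then, in epithelial cells, genes of growth, migration and differentiation. Several families that such cells express are near-identical copies (small proline-rich proteins, histones, tubulins, metallothioneins) or share exons (the UGT1A and protocadherin clusters). A short probe can match several copies, and such genes are often missing from analyses that keep only probesets with 1 symbol. The sets named 2366 genes, of which 597 had no single-symbol probeset at all. Of those 597, 382 were in a tested set and 111 in a set called by the F-test described below. A gene was counted if any of its sets was called, and 27.2% of all tested sets and genes were called.

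Sequences upstream of 3 such families show where their members are alike and where they differ. They are the 250 bases before the RefSeq start of the gene in GRCh38.p14, 5′ to 3′ on the gene's strand. For the small proline-rich proteins, whose shared set changed most, SPRR2A lies on the minus strand (chr1:153057513-153057762), and capitals mark the AP-1 word TGANTCA, searched on both strands (the word and its reverse complement are the same pattern). SPRR2B (chr1:153071612-153071861, minus strand) did not hold that word in this window, and 6.57% of the 35116 upstream windows in the table did; a match is a description of letters, not a binding site. The windows of SPRR2A and SPRR2B were 59.4% identical over 293 aligned columns, 86 of them gaps.
SPRR2A: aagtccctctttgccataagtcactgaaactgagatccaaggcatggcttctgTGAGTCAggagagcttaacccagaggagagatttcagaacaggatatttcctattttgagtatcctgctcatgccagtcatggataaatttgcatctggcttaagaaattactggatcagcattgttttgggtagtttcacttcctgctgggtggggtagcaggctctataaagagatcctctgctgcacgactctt
SPRR2B: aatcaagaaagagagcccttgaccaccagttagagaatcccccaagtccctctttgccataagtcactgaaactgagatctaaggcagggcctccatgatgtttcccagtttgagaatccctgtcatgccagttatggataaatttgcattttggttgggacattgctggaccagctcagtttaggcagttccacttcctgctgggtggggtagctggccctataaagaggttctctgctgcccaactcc
For the UGT1A genes, which have separate first exons and share the rest, UGT1A5 (chr2:233712657-233712906, plus strand) is given beside UGT1A3 (chr2:233728792-233729041, plus strand), with the 25 bases of UGT1A3 that differ from UGT1A5 in capitals. The windows were 89.6% identical over 251 aligned columns, and UGT1A5 and UGT1A4 were 90.0% identical, whereas UGT1A5 and UGT1A6 were 45.4% identical.
UGT1A5: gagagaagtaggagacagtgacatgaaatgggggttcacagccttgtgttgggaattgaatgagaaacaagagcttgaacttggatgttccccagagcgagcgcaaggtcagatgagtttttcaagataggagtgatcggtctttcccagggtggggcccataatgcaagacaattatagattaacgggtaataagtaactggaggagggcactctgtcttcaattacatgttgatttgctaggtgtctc
UGT1A3: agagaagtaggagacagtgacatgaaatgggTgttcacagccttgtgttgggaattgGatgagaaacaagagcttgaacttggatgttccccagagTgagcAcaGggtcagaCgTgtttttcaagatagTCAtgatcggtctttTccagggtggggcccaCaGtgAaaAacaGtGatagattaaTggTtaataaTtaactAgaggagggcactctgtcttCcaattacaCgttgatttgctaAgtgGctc
For the TBC1D3 copies, TBC1D3B (chr17:36176637-36176886, minus strand) and TBC1D3F (chr17:36439522-36439771, minus strand) shared an unbroken run of 204 bases, in capitals, at different distances from the start, so the whole windows were 68.9% identical over 296 aligned columns.
TBC1D3B: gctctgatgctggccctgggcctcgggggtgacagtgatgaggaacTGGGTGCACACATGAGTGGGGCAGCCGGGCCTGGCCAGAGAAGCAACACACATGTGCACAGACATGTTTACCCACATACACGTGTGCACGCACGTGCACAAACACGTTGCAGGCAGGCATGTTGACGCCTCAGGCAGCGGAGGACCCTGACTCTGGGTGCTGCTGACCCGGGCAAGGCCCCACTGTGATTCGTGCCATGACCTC
TBC1D3F: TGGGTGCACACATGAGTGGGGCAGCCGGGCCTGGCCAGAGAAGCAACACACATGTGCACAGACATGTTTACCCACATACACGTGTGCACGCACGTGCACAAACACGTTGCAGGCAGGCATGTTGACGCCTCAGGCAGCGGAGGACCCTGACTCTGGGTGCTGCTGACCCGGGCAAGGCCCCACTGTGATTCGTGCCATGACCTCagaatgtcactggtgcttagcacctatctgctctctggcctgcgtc

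Across the time course, 210 of 805 sets (26.1%) changed in limma's moderated F-test over the 6 times (Benjamini-Hochberg adjusted over all 17419 sets and single-symbol genes), beside 27.2% of all sets and genes and 27.3% of the 16614 genes. At the time of their largest change, 116 of the 210 were higher and 94 lower. The 352 sets that hold a gene without a kept single-symbol probeset were called in 89 cases (25.28%). The share called among sets was thus near the background. All kept probesets of the set moved the same way at the time of its largest change in 117 of the 210 called sets. The call and that time both came from the median of these probesets, so agreement was favoured in advance. The largest change came at 480 min in 46 of the higher and 42 of the lower sets, and at 20 min in 9 and 3.

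Few sets had changed early and more had by the end. At 20 min 4 sets were called (3 higher, 1 lower), beside 0.919% of all features, and at 40 min 14 (5 higher, 9 lower), beside 2.18%. At 60 min 54 sets were called (16 higher, 38 lower), beside 5.83%, and at 120 min 123 (71 higher, 52 lower), beside 14.4%. At 240 min the count was 140 (82 higher, 58 lower), beside 19.5%, and at 480 min 155 (87 higher, 68 lower), beside 22.3%. Among single-symbol genes at 60 min, 800 were higher and 161 lower. Single arrays weighed on these counts: without replicate 3 at 20 min 35 sets were called there, and without replicate 2 at 0 min 8. Without replicate 3 at 40, 60, 120 or 240 min the counts at those times were 8, 35, 81 and 90, and without replicate 2 at 120 min the count there was 78. The 81 sets called at 120 min without replicate 3 were 34 higher and 47 lower. The median log2 level of single-symbol probesets less that of unnamed probesets was 1.24 ± 0.02 (SD, n = 3) at 0 min and had group means of 1.27 to 1.33 later. With this difference as a covariate 38 sets were called at 40 min, and the majority direction turned afterwards: 47 higher and 68 lower at 120 min, 72 and 91 at 240 min, and 97 and 106 at 480 min. With a filter at the 75th percentile of levels 57 were higher and 60 lower at 120 min.

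Genes of the cornified envelope, the protein shell of differentiating keratinocytes, gave the set with the largest rise. SPRR2A/SPRR2B/SPRR2D (5 probesets), small proline-rich proteins cross-linked into that shell, stood at 7.66, 7.91 and 7.44 on the 0 min arrays and at 8.75, 8.57 and 8.68 at 20 min. At 40 min it stood at 9.80, 9.94 and 9.80. The groups did not overlap at any time after 0 min. For sets named by their change at a given time, lack of overlap at that time was a condition of the choice. The change was 1.00 ± 0.15 (log2, SE, n = 3 a group) at 20 min and 2.18 ± 0.15 at 40 min (limma adjusted p = 9.3e-10), then 2.03, 2.06, 2.10 and 1.81 at 60, 120, 240 and 480 min. SPRR2A alone (3 probesets) rose by 2.84 ± 0.22 at 240 min.

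Some other envelope and keratin sets rose later and less. SPRR1A/SPRR1B, which encode related precursors, rose from 8.90, 9.29 and 9.26 at 0 min to 9.90, 10.22 and 10.13 at 120 min, without overlap, a change of 0.94 ± 0.17 (limma adjusted p = 0.0004), or 0.60 with the mean of probesets. KRT6A/KRT6B/KRT6C (33 probesets), keratins of activated epidermis, rose by 0.37 ± 0.09 at 480 min, with all 33 probesets higher. SERPINB3/SERPINB4, protease inhibitors of squamous epithelium, rose by 0.71 ± 0.18 at 480 min. Of 6 tested sets of the keratin and envelope list, 4 were called by the F-test, beside 27.2% of all features. The list's median change at 120 min was 0.35, beside 0.04 over all features. KRT16/KRT16P1, among the called sets, had another course, with its largest change at 40 min (0.26, limma adjusted p = 0.31). Its intensity was 2155, 2247 and 1798 at 0 min and 1753, 1636 and 1838 at 240 min.

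Sets of 1 or 2 kept probesets were read at single probesets, where 107 of 988 members (10.83%) were called in a fit of all kept probesets that called 11.2%. The probeset of SPRR2A/SPRR2E rose from 6.68, 6.93 and 6.74 to 9.79, 9.57 and 9.64 at 120 min, a change of 2.88 ± 0.16. The probesets of S100A7/S100A7A rose by 2.39 ± 0.18 and 2.71 ± 0.23 at 480 min. S100A7 encodes psoriasin, a calcium-binding protein of stressed skin. A probeset of GABARAPL1/GABARAPL3, an autophagy protein and its copy, went from 7.75, 7.81 and 8.05 to 5.36, 5.36 and 5.79 at 480 min, a change of -2.37 ± 0.18. A probeset of ID2/ID2B, the first an inhibitor of helix-loop-helix factors, was 0.54 above 0 min at 20 min and 0.68 ± 0.14 below it at 240 min. Over all kept members, 1423 (13.5%) were called singly, beside 16% of single-symbol and 8.11% of unnamed probesets.

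MYC, a transcription factor induced early by growth factors, was read in 5 probesets annotated MYC and MRTL, which update to 1 gene. It rose from 10.15, 10.18 and 9.82 at 0 min to 10.72, 10.53 and 10.63 at 20 min and to 11.22, 11.32 and 11.32 at 120 min. No later array overlapped the 0 min arrays. The change was 0.58 ± 0.11 at 20 min (limma adjusted p = 0.011), 1.24 ± 0.11 at 120 min and 0.47 ± 0.11 at 480 min. It was the only set that held a member of the list of 31 immediate early factors. No set held any of 27 feedback regulators of ERK or of 15 EGF ligands and receptors.

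**Figure D1:**
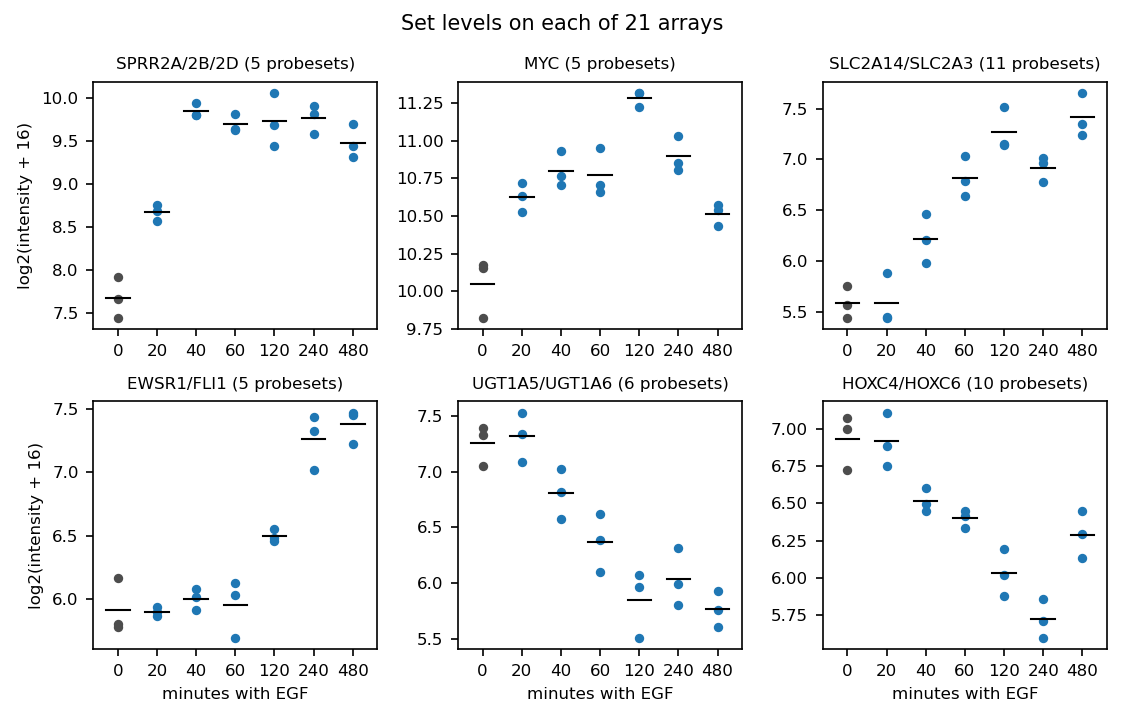
Level of 6 sets, as log2(intensity + 16) on the vertical axes, on each array (points) at 7 times on the horizontal axis, with the group mean as a bar and 0 min in grey. The SPRR2 set is above its 0 min arrays from 20 min, EWSR1/FLI1 from 120 min, and HOXC4/HOXC6 is lowest at 240 min.

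The UGT1A genes encode enzymes that attach glucuronic acid to bilirubin, hormones and drugs. Each has its own first exon joined to shared exons, and the annotation gives UGT1A6 as second symbol for the others. Of 8 tested sets, 7 were called by the F-test, beside 27.2% of all features, all with lower levels at 480 min, and UGT1A6/UGT1A8 was not. The list's median change at 480 min was -0.71, beside 0.05 over all features.

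The sets fell at different times. UGT1A5/UGT1A6 (6 probesets) stood at 7.33, 7.39 and 7.05 at 0 min and at 6.10, 6.62 and 6.38 at 60 min. It then stood at 5.51, 5.96 and 6.07 at 120 min. These groups did not overlap, and the change was -0.89 ± 0.17 at 60 min, -1.41 ± 0.17 at 120 min and -1.49 ± 0.17 at 480 min (limma adjusted p = 1.8e-06). UGT1A3/UGT1A6 (4 probesets) changed by -1.12 ± 0.14 at 120 min and -1.17 ± 0.14 at 480 min. The set naming all 9 genes (6 probesets) stood at 9.90, 10.09 and 10.04 at 0 min, 9.90, 10.22 and 10.14 at 120 min and 9.34, 9.25 and 9.26 at 480 min. It thus overlapped its 0 min level at 120 min and lay below it at 480 min (-0.73 ± 0.11). UGT1A6 alone (3 probesets) changed by -0.26 ± 0.20 at 120 min and -1.23 ± 0.20 at 480 min.

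The difference between sets was tested within arrays. At 120 min the 9-gene set exceeded UGT1A5/UGT1A6 in its change by 1.48 ± 0.21 and UGT1A3/UGT1A6 by 1.20 ± 0.17 (limma adjusted p = 7.1e-05 for both). Over all 498 pairs of sets that share a gene, 76 (15.3%) differed in their time course, and 50 did without replicate 3 at 480 min. The pairs overlap in their sets and are not independent.

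**Figure D2:**
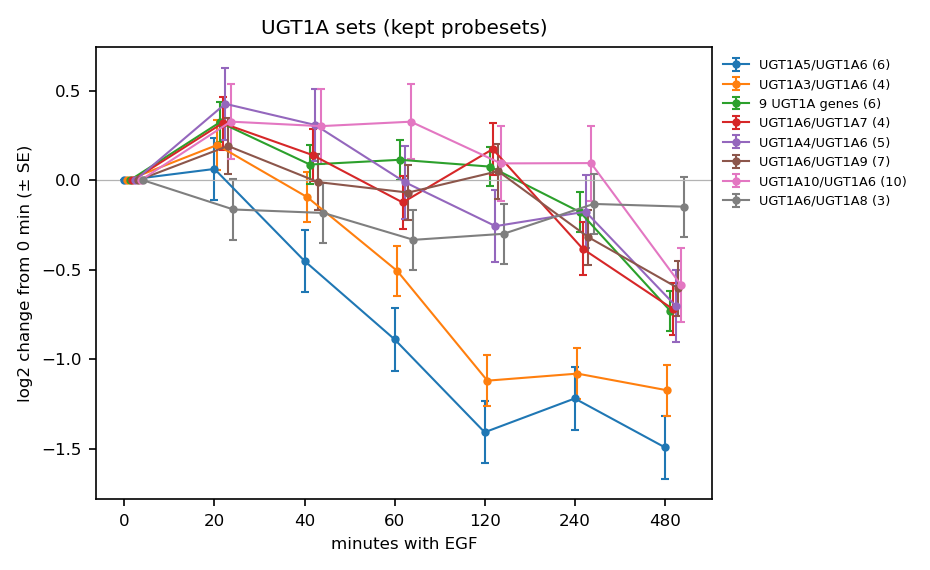
Change from 0 min (log2, ± SE, n = 3 a group) of the 8 UGT1A sets against minutes with EGF, with the number of kept probesets in brackets. UGT1A5/UGT1A6 and UGT1A3/UGT1A6 are at -1.41 and -1.12 at 120 min, while the other sets are between -0.30 and 0.17.

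Each tested set was compared with every gene it names that had its own tested single-symbol feature. Of 993 such pairs of a set and a gene, 136 (13.7%) differed in their course by the F-test on the difference within arrays. Pairs share sets and genes and are not independent.

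SLC2A14/SLC2A3 (11 probesets) joins the glucose transporter GLUT3 with its near copy. It rose from 5.75, 5.44 and 5.57 at 0 min to 7.14, 7.15 and 7.52 at 120 min and 7.35, 7.24 and 7.66 at 480 min, without overlap from 40 min. Its change at 480 min, 1.83 ± 0.16, differed from that of SLC2A14 alone (0.55 ± 0.14) by 1.27 ± 0.20, limma adjusted p = 0.00039. SLC2A3 alone changed by 1.92 ± 0.16, and the F-test on its difference from the set gave an adjusted p of 0.88, which does not show that they act alike.

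EWSR1/FLI1 (5 probesets) joins an RNA-binding protein and an ETS factor, the partners of a fusion gene in Ewing sarcoma. It stood at 6.16, 5.78 and 5.80 at 0 min and at 6.48, 6.46 and 6.56 at 120 min. At 480 min it stood at 7.47, 7.22 and 7.45, and both times were above all 0 min arrays. Its change at 480 min, 1.47 ± 0.13, exceeded that of EWSR1 alone (0.31 ± 0.10) by 1.16 ± 0.13 (limma adjusted p = 5.6e-06). FLI1 alone changed by 1.102 ± 0.13, 0.36 ± 0.15 less than the set (adjusted p = 0.13).

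Falling sets differed from their genes too. CDK11A/SLC35E2, a cyclin-dependent kinase and a sugar-transporter relative, changed by -1.18 ± 0.14 at 240 min, beside -0.22 ± 0.10 for CDK11A alone and -0.96 ± 0.13 for SLC35E2 alone. Its difference from CDK11A was -0.97 ± 0.16 (limma adjusted p = 0.00059) and from SLC35E2 -0.23 ± 0.14 (adjusted p = 0.36). HOXC4/HOXC6 (10 probesets), homeobox factors, stood between 6.72 and 7.08 on the 0 min arrays and at 5.59, 5.71 and 5.85 at 240 min. Those groups did not overlap, and the change of -1.22 ± 0.12 differed from that of HOXC4 alone (-0.06 ± 0.13, 3 probesets) by -1.16 ± 0.19. HOXC6 had no kept single-symbol probeset.

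In other pairs the set and the gene differed in size or direction. DYNLT2B/TM4SF19 had a change of -0.03 ± 0.16 at 480 min, while TM4SF19 alone, a membrane protein of the L6 family, rose by 1.84 ± 0.16. KRT6B alone rose by 1.24 ± 0.12 at 240 min, 0.92 ± 0.13 more than KRT6A/KRT6B/KRT6C. AKR1C1/AKR1C2, aldo-keto reductases of steroids, had 0.27 ± 0.11 at 40 min, while AKR1C2 alone (4 probesets) fell by 1.11 (SE 0.12). ARPC4/TTLL3 rose by 0.72 ± 0.17 at 480 min, beside -0.26 ± 0.14 for TTLL3, a tubulin-modifying enzyme.

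**Figure D3:**
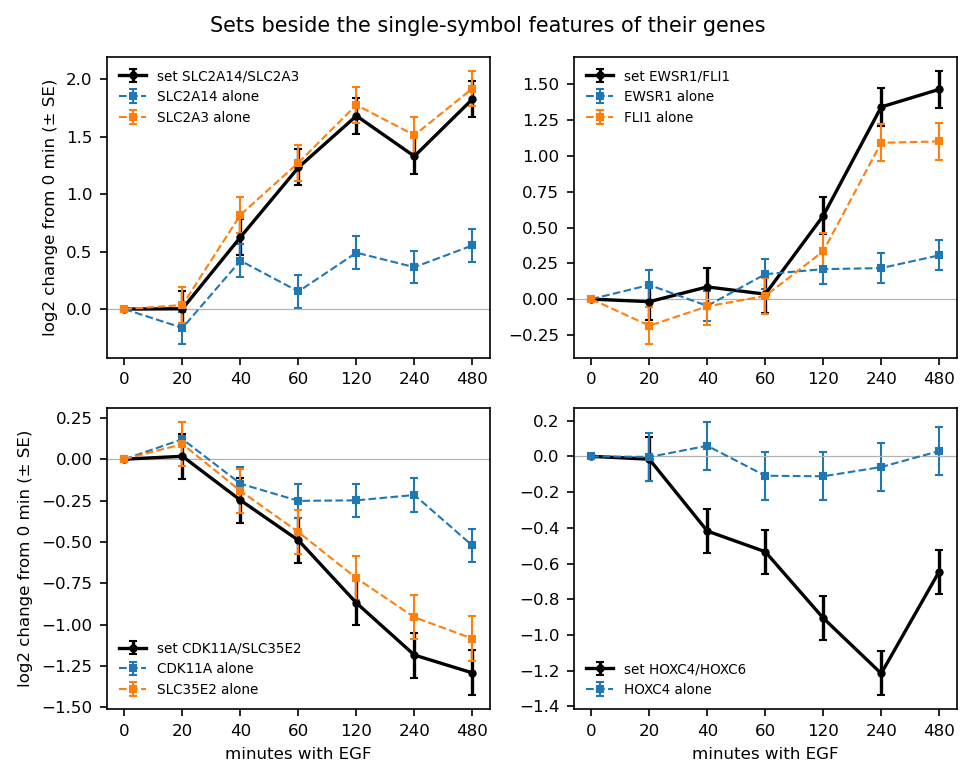
Change from 0 min (log2, ± SE, n = 3 a group) against minutes with EGF for 4 sets (black) and for the single-symbol probesets of their genes (dashed). SLC2A14/SLC2A3 reaches 1.83 beside 1.92 for SLC2A3 and 0.55 for SLC2A14, and HOXC4/HOXC6 reaches -1.22 beside -0.06 for HOXC4.

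Among multicopy genes, the TBC1D3 family, hominoid-specific relatives of Rab GTPase activators, fell in its sets with the most probesets. The set naming 8 copies (65 probesets) stood at 8.51, 8.29 and 8.29 at 0 min, 7.72, 7.69 and 7.73 at 120 min and 7.27, 7.21 and 7.30 at 480 min, without overlap from 40 min. Its change at 480 min was -1.105 ± 0.11 (limma adjusted p = 1.6e-07), and all 65 probesets were lower. The set that adds TBC1D3P2 (81 probesets) changed by -1.11 ± 0.12. TBC1D3 alone changed by -0.53 ± 0.15 and TBC1D3C alone by -0.31 ± 0.15. A set naming 6 copies (13 probesets) was not called, with -0.18 ± 0.13, and its change exceeded that of the 8-copy set by 0.93 ± 0.15 (limma adjusted p = 0.00091).

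Replication-dependent histones, which package newly made DNA, are near-identical copies and mostly have no probeset of their own. The H4 set of 14 genes (39 probesets) stood at 7.92, 8.34 and 8.26 at 0 min and 7.22, 7.24 and 7.36 at 240 min, a change of -0.90 ± 0.16 without overlap (limma adjusted p = 0.00032), or -0.52 with no filter and -0.53 with the mean of probesets. H3C13/H3C14/H3C15 changed by -0.91 ± 0.18 at 480 min (-0.56 with no filter), having been within 0.23 of 0 min before that. The set of H3C1, other H3 genes and H2AC7 (15 probesets) changed by -0.48 ± 0.16 at 480 min (limma adjusted p = 0.038), with all 15 lower. That call was lost with a pseudocount of 64 (-0.31) and without replicate 2 or 3 at 0 min or replicate 1 or 3 at 480 min, and with a filter at the 75th percentile the value was -0.85. Of 7 tested histone sets 4 were called by the F-test, beside 27.2% of all features, and 3 were lower at 480 min, where the list's median change was -0.33, beside 0.05 over all features. At 120 and 240 min the list's median change was 0.24 and 0.15, beside 0.04 and 0.02 over all features.

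Some tubulin sets rose. TUBA1A/TUBA1B, alpha-tubulins, went from 11.42, 11.30 and 11.04 to 11.83, 11.82 and 11.86 at 480 min, 0.58 ± 0.10, while TUBA1A alone had 0.03 ± 0.13 and TUBA1B alone 0.65 ± 0.12. TUBA3C/TUBA3D/TUBA3E, of which TUBA3C and TUBA3D had no kept probeset of their own, rose by 0.62 ± 0.13, with 0.20 and no call when no filter was used and 0.39 with the mean of probesets. Of 6 tested actin and tubulin sets 3 were called by the F-test and 3 were higher at 480 min, beside 27.2% and 22.3% of all features called. The list median at 480 min was 0.48, beside 0.05 over all features. PCDHGA12/PCDHGC3, clustered protocadherins that mediate cell contact, rose by 0.70 ± 0.13 at 480 min. MT1H/MT1HL1, metal-binding metallothioneins, rose by 1.103 ± 0.16 at 480 min.

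Sets of ribosome, nucleotide and RNA genes gave rises and falls. SNHG11/SNORA60, a small nucleolar RNA host and a small nucleolar RNA, was lower at 40 min (-0.53, limma adjusted p = 0.002). With no filter the value was -0.33 and not called. SBDS/SBDSP1, a ribosome maturation factor and its pseudogene, rose by 1.01 ± 0.14 at 240 min with all 17 probesets higher. NME1/NME2, nucleoside diphosphate kinases, rose by 0.91 ± 0.17 at 480 min, while NME2 alone (3 probesets) had -0.21 ± 0.19. MATR3/SNHG4, a nuclear matrix protein and a small nucleolar RNA host, rose by 0.93 ± 0.12 at 240 min. MATR3 alone (33 probesets) had 0.31 ± 0.24 at 240 min and was not called. Both NME1/NME2 and MATR3/SNHG4 held fewer than 5 kept probesets. Of 8 tested ribosomal protein sets 1 was called by the F-test, beside 27.2% of all features. It was RPL7A/SNORD36A, a ribosomal protein and a small nucleolar RNA, with 0.87 ± 0.19 at 120 min and 0.56 with the array covariate described above. RPLP0/RPLP0P2, a ribosomal stalk protein and its pseudogene, was lower at 120 min by the contrast at that time (-0.53, limma adjusted p = 0.049). That call was lost in 15 of the refits without 1 array, and the value was -0.18 with the mean of probesets. RPLP0 alone (34 probesets) had 0.18 ± 0.12 and RPLP0P2 alone (9 probesets) -0.08 ± 0.18 at 120 min.

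Several other sets also rose. TLR9/TWF2, an innate immune receptor and an actin-binding twinfilin, stood at 7.60, 8.49 and 8.04 at 0 min and 9.19, 9.27 and 9.13 at 480 min, a change of 1.16 ± 0.17 without overlap. That exceeded TLR9 alone (-0.14 ± 0.19) by 1.30 ± 0.21 (limma adjusted p = 0.00044), while TWF2 alone changed by 0.61 ± 0.12. LOC100133920/LOC286297 (10 probesets), uncharacterised loci, rose by 1.29 ± 0.12 at 480 min, or 0.68 with no filter. MAP1LC3B/MAP1LC3B2, autophagy proteins, rose by 0.60 ± 0.12 at 40 min, with 0.35 and no call when the mean of probesets was taken. HLA-B/HLA-C, antigen-presenting molecules, rose by 0.66 ± 0.14 at 60 min and stood 0.11 ± 0.14 above 0 min at 480 min. With the mean of probesets the 60 min value was 0.21 and not called. HLA-C alone (4 probesets) had -0.16 ± 0.18 at 60 min. HSP90AA1/HSP90AA4P, a chaperone and its pseudogene, rose by 0.44 ± 0.10 at 480 min.

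Other lists held few sets. Of 3 tested cytokine sets (CCL3 and CCL4 copies) none was called, and neither was AURKA/AURKAP1, the only cell cycle set, nor FOXO3/ZNF286C, the only set of the quiescence list, by limma's F-test; 1 of these 5 sets had an unadjusted p under 0.05. AURKA/AURKAP1 ranged from 6.45 to 7.70 over its own 0 min arrays. Of 5 heat shock sets 1 was called, of 4 antigen presentation sets 1, and of 3 nutrient supply sets 2, beside 27.2% of all features. In that last list LOC442497/SLC3A2, the second an amino acid transporter subunit, changed by -0.69 ± 0.13 at 480 min, or -0.43 with the mean of probesets. SLC3A2 alone (5 probesets) had -0.27 ± 0.16 at 480 min and was not called. Of 21 cholesterol and fatty acid genes 0 sets had enough kept probesets to be tested.

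Further sets fell at different times. DLEU2/DLEU2L, a long noncoding RNA and its copy, went from 7.49, 6.81 and 7.30 to 5.81, 5.19 and 6.05 at 480 min, a change of -1.52 ± 0.29. STON1/STON1-GTF2A1L, an endocytic adaptor and its readthrough transcript, changed by -1.35 ± 0.18 at 480 min, where its arrays read 4.95, 4.61 and 5.09, all under the limit of 5.18 for keeping a probeset. The size of that fall thus depends on the pseudocount, with -2.08 for a pseudocount of 1 and -0.67 for 64. It had 0.53 ± 0.18 at 20 min (adjusted p = 0.15). GTF2IRD2/GTF2IRD2B, transcription factor copies, changed by -0.99 ± 0.13, with all 10 probesets lower. KLRC2/KLRC3, lectin-like receptors of natural killer cells, changed by -0.99 ± 0.14 at 480 min and lay at 4.89, 4.89 and 5.15 there, also under that limit, with -1.55 for a pseudocount of 1 and -0.47 for 64. AGAP4/AGAP5/AGAP9, ARF GTPase activators, changed by -1.03 ± 0.13 at 120 min, beside -0.61 ± 0.19 for AGAP4 alone. FAM90A1/FAM90A20/FAM90A24/FAM90A7 (3 probesets) was the set called lower at 20 min, with -1.59 ± 0.27, or -0.85 with the mean of probesets and -0.84 with a pseudocount of 64. Its intensity at 20 min was 14.1, 7.08 and 33.8, beside 20.2 as the limit for keeping a probeset. FAM90A1 alone had 0.13 ± 0.18 at 20 min. FAM90A1/FAM90A7 (9 probesets) had 0.90 ± 0.17 at 480 min, when the change of the 4-gene set less that of the 2-gene set was -2.13 ± 0.24 (limma adjusted p = 9.0e-06).

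**Figure D4:**
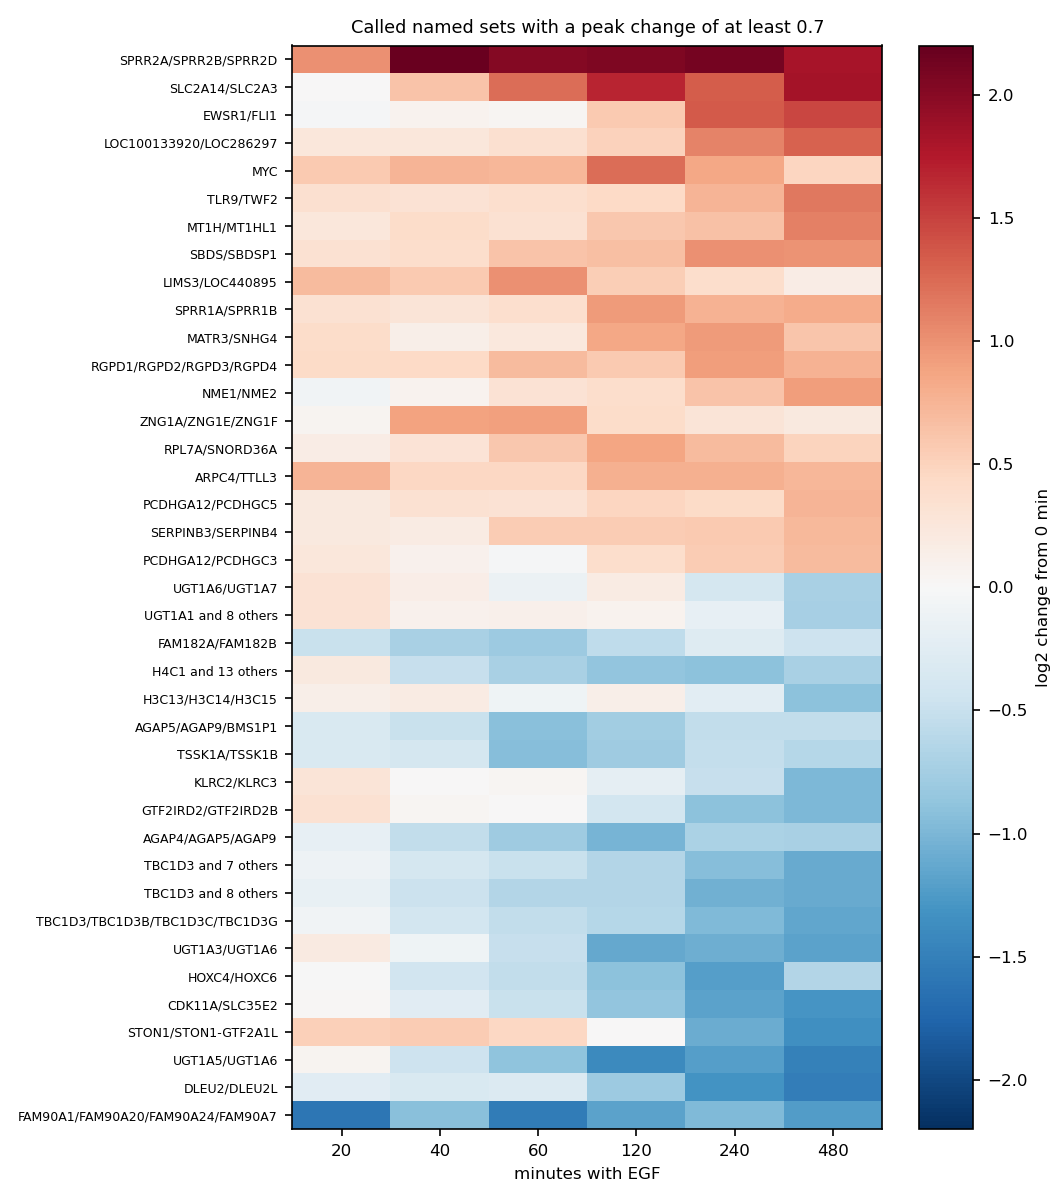
Change from 0 min (log2, colour) at 6 times (columns) of the 39 named sets called by the F-test with a peak change of at least 0.7 (rows, 19 higher and 20 lower). The SPRR2 set is high from 20 min, and most falling sets are lowest at 480 min.

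By the relation of the genes in a set, 125 of 483 sets of genes that lie apart and share a name stem were called, 26 of 122 sets of other genes that lie apart, and 24 of 106 sets of genes that overlap or neighbour on 1 strand. These are 25.88%, 21.31% and 22.64%, beside 27.2% of all features. Readthrough sets were called in 8 of 20 cases and sets with a small RNA in 4 of 9, which are few sets. A pseudocount of 64 shrank the largest changes of more of the sets described above by over 1.5 times. The values were then 1.19 for SLC2A14/SLC2A3, -0.98 for UGT1A5/UGT1A6, -0.76 for HOXC4/HOXC6, -0.97 for DLEU2/DLEU2L and -0.31 for SNHG11/SNORA60. A fall or rise in a set of near-identical genes cannot be assigned to 1 copy from these probesets.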

How the data were processed

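Intensities of the 21 exon arrays were used as deposited by the authors, on a linear scale; PLIER and Affymetrix Expression Console 1.1 are named in the submitters' processing notes, with no role given. Per the labels, each time had biological triplicates. All columns belonged to a sample (0 did not). Values were converted to log2(intensity + 16), and probesets with a mean under the median of all were left out. Symbols came from the platform annotation (1908 of 2425 current, 469 updated, 48 as annotated). Sets and genes with 3 or more kept probesets were summarised by their median and fitted in limma 3.58.1 (R 4.3.3) with 1 term per time; residual df were 14 and prior df 6.97. Calls are at an adjusted p under 0.05. Differences between a set and a gene, or between sets that share a gene, were fitted as within-array differences; the second comparison was added after values were seen. Promoter windows were aligned with Biopython 1.88.

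Sets were named by rule: the largest changes at each time and at any time, sets of genes without own probesets, the smallest p-values among set and gene pairs, up to 4 sets per gene list, and 10 probesets of small sets. The members and lists were chosen with earlier results of these data known. Letters A to C have no stated meaning, and arrays were not treated as paired. Same-letter deviations correlated at -0.54 to 0.566 (median -0.011), with 19 of 63 over 0.1. Other-letter deviations correlated at -0.652 to 0.689 (median 0.006), with 44 of 126 over 0.1. Alternatives were another scaling, pseudocount, filter, summary, minimum of probesets or symbol rule, a replicate block, an array index covariate, and leaving out each array. No probeset coordinates were used here.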

Additional observations from a re-analysis of the deposited data

How the results depend on the processing

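Of 60 named sets called at the time of their largest change, 47 kept the call in every refit without 1 array, and 13 lost it in at least 1. Of 825 values of named sets under the other alternatives, 788 kept their direction and side of the threshold, 26 lost the call, 8 gained it, 3 that were not called changed sign and 0 called values reversed. The 3 were those of DYNLT2B/TM4SF19 at 240 min, -0.18 in the fit used for the report and 0.33 with no filter, 0.20 with a filter at the 75th percentile and 0.25 with the mean of probesets. With sets of 1 or more probesets, more sets entered, and 341 were called by the F-test and 9, 26, 92, 200, 233 and 261 at 20, 40, 60, 120, 240 and 480 min; 238 set and gene pairs and 127 set pairs were then called. With at least 5 probesets fewer entered, and 79 set and gene pairs and 31 set pairs were called. With the mean of probesets 25 sets were called at 40 min and 241 set and gene pairs; with a pseudocount of 64, 22 sets, and with the array index covariate, 38 sets were called at 40 min. The cause was not tested for the last 4 counts.

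Without 1 array, calls ranged from 182 to 248 by the F-test, from 3 to 35 at 20 min, 8 to 17 at 40, 35 to 62 at 60, 78 to 141 at 120, 90 to 153 at 240 and 113 to 172 at 480 min. They ranged from 100 to 147 for set and gene pairs, 50 to 111 for set pairs and 1059 to 1611 for member probesets. With the replicate block, 212 sets were called by the F-test and 4, 13, 55, 117, 136 and 155 at the 6 times, with 120 set and gene pairs, 71 set pairs and 1275 probesets; no count moved by over 1.5 times. With 3 arrays a group, small changes such as those in the keratin sets are limited by the replicate SD, whose median was 0.179 for a set.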
